A study of Mus musculus with 3 samples.

Results

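The genes described are 9 markers of the megakaryocyte and platelet lineage, listed by symbol and not by a measured level: the platelet glycoprotein genes Gp1ba, Gp1bb, Gp9, Gp5 and Gp6, the granule genes Pf4, Ppbp and Vwf, and the transcription factor gene Nfe2. All 9 were measured, among 55214 genes. They were read in 3 separate cultures of Ba/F3, a mouse interleukin-3-dependent line usually described as pro-B, all kept in RPMI medium holding penicillin-streptomycin, 10% FCS and recombinant murine IL-3 at 0.2 ng/mL. The cultures form 1 group from 1 line with no contrast between conditions, and the study that deposited them deals with ITPK1 and killing of tumour cells by neutrophils through IgA.

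Megakaryocytes are the bone marrow cells that shed platelets. On platelets, glycoproteins Ibα, Ibβ, IX and V form the GPIb-IX-V complex, which holds the platelet to von Willebrand factor at sites of injury, and glycoprotein VI, which signals through the Fc receptor γ chain, binds collagen. Platelet factor 4, pro-platelet basic protein and von Willebrand factor are stored in α-granules. NF-E2, a pair of the p45 protein encoded by Nfe2 and a small MAF protein, is needed for the last steps of platelet formation and is also present in erythroid cells.

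The sums of counted reads were 32044889, 33880292 and 37180883 in cultures 1, 2 and 3. Levels are given as CPM, the reads of a gene per 1000000 reads of its culture, or, wherever different genes are compared, as TPM, in which reads are first divided by the exonic length of the gene. A gene without a read in a culture lay below 0.0936, 0.0885 and 0.0807 CPM in cultures 1, 2 and 3, the level of 3 reads. Such limits, and the intervals below, hold for counting error alone, as no molecular identifiers were used. Of 12 early B cell markers, 2 were detected at 1 or more CPM in every culture, beside 45.9% of protein-coding genes. They were Cd79b at 47.4 ± 2.80 TPM and Cd79a at 4.18 ± 0.266 TPM (SD, n = 3), and Ebf1 and Rag1 had no read.

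Of the 9 genes, 3 were detected, which means at least 1 CPM in every culture: Nfe2, Gp6 and Gp9. The same rule detected 19.9% of all genes and 45.9% of the 21965 protein-coding genes. The other 6 (Gp1ba, Gp1bb, Gp5, Pf4, Ppbp and Vwf) lay under 1 CPM in all 3 cultures, with at most 15 reads in any of them. The highest of these was Gp5 at 0.468 CPM in culture 1. The lowest value of a detected member was 2.84 CPM for Gp9, also in culture 1. No member lay between these values, and Gp9 stood at percentile 8.68 of CPM among detected genes. With a threshold of 5 CPM, 2 of the 9 were detected, since Gp9 fell out. In bulk RNA, fewer cells with a transcript and less of it in each cell cannot be told apart.

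**Figure D1:**
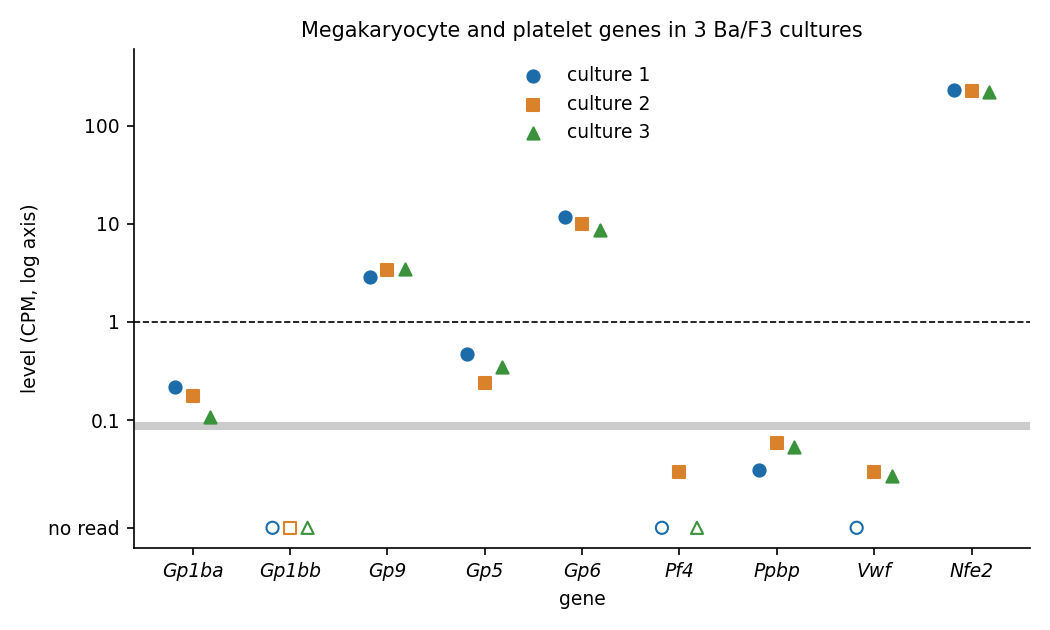
Level of each of the 9 genes in each culture (CPM, log axis; 1 point per culture, open points at the bottom for no read). The dashed line is the detection threshold of 1 CPM and the grey band the level of 3 reads; Nfe2 stands between 219 and 231 CPM, Gp6 and Gp9 lie above the threshold in all 3 cultures, and the other 6 lie below it.

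Ordered by TPM over the merged exonic length, Nfe2 came first at 262 ± 8.23 TPM, then Gp9 at 12.7 ± 1.27, Gp6 at 5.98 ± 0.871, Gp5 at 0.556 ± 0.184, Gp1ba at 0.215 ± 0.0726, Ppbp at 0.154 ± 0.0475, Pf4 at 0.0477 ± 0.0827 and Vwf at 0.00407 ± 0.00354 (SD, n = 3). Gp1bb had no read and has no fixed place in this order, since its unshared bases allow up to 0.679 TPM at a limit of 3 reads. The order of Gp9 and Gp6 turns when the shorter transcript of Gp6 is taken as its length, which puts Gp6 at 36.6 TPM. By its shortest transcript Vwf would stand at 0.196 TPM, above Ppbp, though on 2 reads in all. The values of Nfe2, Gp9, Gp6, Gp5 and Gp1ba did not overlap between one gene and the next at these lengths. Those of Gp1ba and Ppbp overlapped, as did those of Ppbp and Pf4 and of Pf4 and Vwf. Among the 10993 detected genes Nfe2 stood at percentile 95.1 of TPM, Gp9 at 24.9 and Gp6 at 12.03, by merged length. The shorter Gp6 transcript would put Gp6 above the median detected gene, with all other genes kept at merged length. The median detected gene had 30.1 TPM, and the median of the 3 detected members was 12.7. Over all 9 members, 6 of them not detected, the median was 0.215, or 0.556 with Gp1bb at its limit.

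Promoters of the glycoprotein genes that were read (Gp9 and Gp6) are printed beside those of an adhesion gene and a granule gene that were hardly read (Gp1ba and Pf4), since Gata1, Gata2, Fli1 and Runx1, the factors that bind such promoters in megakaryocytes, were all detected. Each is 300 bases of RefSeq sequence on GRCm38, from 250 bases before to 50 after the annotated start, written 5′ to 3′ in the direction of the gene. The intervals are chr6:87777820-87778119 on the plus strand for Gp9, chr7:4397695-4397994 on the minus strand for Gp6, chr11:70638872-70639171 on the plus strand for Gp1ba and chr5:90772185-90772484 on the plus strand for Pf4. Capitals mark matches to the GATA motif, searched as GATAA. They also mark the ETS core, searched as GGAAG, and the RUNX motif, searched as TGTGGT. Each was searched on both strands, so the capitals of some matches read as the other strand.
Gp9: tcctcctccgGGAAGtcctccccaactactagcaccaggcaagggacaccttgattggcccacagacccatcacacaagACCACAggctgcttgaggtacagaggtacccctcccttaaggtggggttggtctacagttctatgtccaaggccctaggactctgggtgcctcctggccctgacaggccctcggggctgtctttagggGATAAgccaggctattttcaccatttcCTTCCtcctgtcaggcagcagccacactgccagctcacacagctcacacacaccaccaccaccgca
Gp6: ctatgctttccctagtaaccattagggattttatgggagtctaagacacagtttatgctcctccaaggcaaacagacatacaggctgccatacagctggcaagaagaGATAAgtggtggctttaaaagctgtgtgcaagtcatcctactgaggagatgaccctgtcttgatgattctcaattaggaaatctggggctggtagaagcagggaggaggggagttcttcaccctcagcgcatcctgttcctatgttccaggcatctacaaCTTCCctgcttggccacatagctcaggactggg
Gp1ba: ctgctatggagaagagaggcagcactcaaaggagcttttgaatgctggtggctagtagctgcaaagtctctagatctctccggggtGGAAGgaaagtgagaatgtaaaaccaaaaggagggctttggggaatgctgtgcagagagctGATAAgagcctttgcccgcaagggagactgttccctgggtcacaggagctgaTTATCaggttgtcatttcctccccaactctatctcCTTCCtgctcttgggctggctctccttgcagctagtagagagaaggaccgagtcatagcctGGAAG
Pf4: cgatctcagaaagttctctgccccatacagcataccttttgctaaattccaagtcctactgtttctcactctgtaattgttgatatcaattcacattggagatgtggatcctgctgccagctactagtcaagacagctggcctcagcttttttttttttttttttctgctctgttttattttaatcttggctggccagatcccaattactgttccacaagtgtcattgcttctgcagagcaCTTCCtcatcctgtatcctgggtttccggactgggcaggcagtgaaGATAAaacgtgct

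Promoters were found for 7 of the 9 genes, all but Vwf and Nfe2. GATAA occurred in 5 of the 7 (Gp1ba, Gp9, Gp5, Gp6 and Pf4), beside 25.4% of 32851 promoters of the same length. GGAAG occurred in 7 of 7, beside 71.4%, and TGTGGT in 1, that of Gp9, beside 16.8%. TGAGTCA, the core of the NF-E2 motif, which overlaps the AP-1 motif, was in 0 of the 7 windows and in 5.20% of all. Gp9 has GATAA starting 43 bases before the start site, and Gp1ba has it at 103 and, on the other strand, at 51 bases before. The letters of the GATA motif thus stood both in the windows of the detected genes Gp9 and Gp6 and in those of Gp1ba, Gp5 and Pf4, which were not detected. In Pf4 the match begins at base 38 after the start site. The windows without GATAA, those of Gp1bb and Ppbp, also belong to genes that were not detected. Such matches describe letters and not bound sites, and the motifs were chosen after the levels were known.

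Within the GPIb-IX-V complex only Gp9 was detected. Gp9, the gene of glycoprotein IX, which the complex needs to reach the surface (ENSMUSG00000030054, chromosome 6, 87778072 to 87779768, plus strand), has 2 exons, of which 1 is coding. It had 91, 114 and 128 reads in cultures 1, 2 and 3, or 2.84, 3.36 and 3.44 CPM, a mean of 3.22 ± 0.328 (SD, n = 3). Culture 1 was lowest, and the spread between cultures, 1.21 times from lowest to highest, did not exceed counting noise by a chi-square test (adjusted p = 0.490). That test set the reads against equal CPM in all cultures, with Benjamini-Hochberg adjusted values over 13142 genes.

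Gp5 encodes glycoprotein V, the thrombin-cleaved subunit that the rest of the complex can do without (ENSMUSG00000047953, chromosome 16, 30307685 to 30310779, minus strand). It had 15, 8 and 13 reads in cultures 1, 2 and 3, or 0.468, 0.236 and 0.350 CPM. Pooled over the cultures this was 0.349 CPM with an exact Poisson 95% interval of 0.245 to 0.483, above the level of 3 reads. Its cultures did not differ beyond counting noise by the chi-square test (adjusted p = 0.439), for which so few reads leave wide intervals.

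Gp1ba encodes glycoprotein Ibα, the chain that binds von Willebrand factor (ENSMUSG00000050675, chromosome 11, 70639122 to 70642036, plus strand). It had 7, 6 and 4 reads in cultures 1, 2 and 3, or 0.218, 0.177 and 0.108 CPM, and the pooled level was 0.165 CPM (exact Poisson 95% interval 0.0960 to 0.264). These reads lie over the limit of 3 reads in each culture but are too few for the chi-square test. Per length, Gp9 was 40.1, 58.6 and 98.7 times Gp1ba and 15.1, 35.5 and 24.6 times Gp5 in cultures 1, 2 and 3. These folds rest on 7, 6 and 4 reads of Gp1ba and 15, 8 and 13 of Gp5. Their differences between cultures were not tested.

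Gp1bb, the gene of glycoprotein Ibβ (ENSMUSG00000050761, chromosome 16, 18620317 to 18622403, minus strand), had 0 of 103106064 reads over the 3 cultures, which allows up to 0.0291 CPM. Of its 2087 exonic bases, 1938 (92.9%) are also exonic bases of Sept5, the septin gene that runs into Gp1bb on the same strand, or of the read-through gene Gm49601, and 149 are its own. Of 140 protein-coding genes with all exonic bases shared on the same strand, 0 had a read in any culture, beside 64.9% of the 20209 with none shared. The 0 of Gp1bb may thus speak for its unshared bases alone. Of the 75 protein-coding genes with 90% to under 100% shared, the class of Gp1bb, 30 (40%) had a read. Over its 149 own bases, 3 reads in all would amount to 0.679 TPM, less than the level of Gp9 and more than that of Gp5. Sept5 and Gm49601 also had no read, with 638 and 1188 bases of their own. No other member shared an exonic base with another gene on either strand.

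Gp6 was the second member by reads. It encodes glycoprotein VI (ENSMUSG00000078810, chromosome 7, 4363965 to 4397744, minus strand) in 8 exons and had 372, 341 and 325 reads, or 11.6, 10.1 and 8.74 CPM in cultures 1, 2 and 3, a mean of 10.1 ± 1.44 (SD, n = 3). Culture 1 was highest and culture 3 lowest, 1.33 times apart, a difference beyond counting noise by the chi-square test with Benjamini-Hochberg adjustment (adjusted p = 0.00416). Of all tested genes, 32.7% passed the same test, and of the 4 members with enough reads 2 did, Gp6 and Nfe2. The chi-square call for Gp6 ended without culture 1 (adjusted p = 0.273) or without culture 3 (adjusted p = 0.185), the extremes.

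By reads Gp6 lay above Gp9, and per length Gp9 was 2.17 ± 0.503 times Gp6 (SD, n = 3). That order hangs on which Gp6 transcript was present. The exons of its 2 annotated transcripts cover 5900 bases, of which 15.9% are coding, and the shorter transcript has 965 bases. Taken by that shorter length, Gp6 would stand at 36.6 TPM, above Gp9. Fcer1g, the Fc receptor γ chain that glycoprotein VI signals through, stood at 328, 306 and 311 TPM in cultures 1, 2 and 3, which was 53.2 ± 6.69 times Gp6, or 8.70 ± 1.09 times by the shorter transcript (SD, n = 3).

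**Figure D2:**
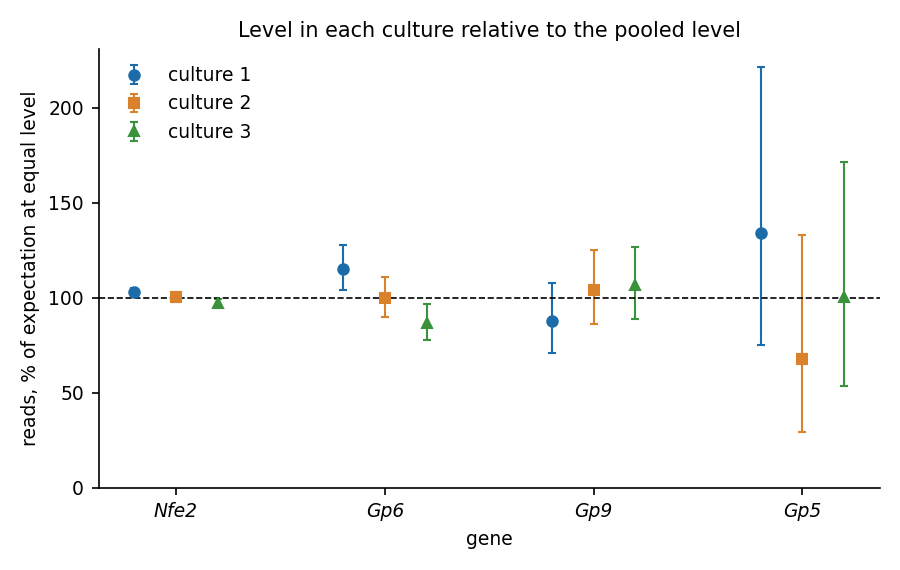
Reads of the 4 members with a mean of at least 10 reads, as a percentage of the reads expected if the gene had the same CPM in every culture (linear axis; bars are exact Poisson 95% intervals). Gp6 runs from 115% in culture 1 to 86.8% in culture 3, Nfe2 from 103% to 97.4%, and the intervals of all 3 cultures include 100% for Gp9 and Gp5.

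The α-granule genes were at the floor. Pf4, a chemokine that neutralises heparin-like glycans (ENSMUSG00000029373, chromosome 5, 90772435 to 90773383, plus strand), had 0, 1 and 0 reads in cultures 1, 2 and 3. Ppbp, the precursor of the neutrophil-attracting chemokine NAP-2 (ENSMUSG00000029372, chromosome 5, 90768518 to 90770063, plus strand), had 1, 2 and 2 reads, and its pooled level was 0.0485 CPM (exact Poisson 95% interval 0.0157 to 0.113). Vwf, the gene of von Willebrand factor (ENSMUSG00000001930, chromosome 6, 125546774 to 125686679, plus strand), had 0, 1 and 1 reads over 16064 exonic bases. All 3 genes stayed at or under 2 reads in every culture, so no fold between them is given.

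The genes around these members differed. Ppbp and Pf4 lie 2.37 kb apart in a chemokine cluster, and of its other genes Cxcl5, Cxcl15, Cxcl1 and Cxcl2 had no read and Cxcl3 had 1, in culture 2. Cd9 and Ano2, on either side of Vwf, had no read. Gp5 and Gp1ba each sit near a detected gene: Atp13a3 lies 1.64 kb from Gp5 on the same strand at 116 ± 3.33 TPM, and Slc25a11 lies 2.16 kb from Gp1ba on the other strand at 178 ± 3.77 TPM (SD, n = 3).

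Gp9 stood above the protein-coding genes on either side, with Efcc1 at 0.176 TPM and Rab43 at 0.360 TPM. Of the 5526 exonic bases of Rab43, 4164 are shared with another gene on the same strand, and over the 1362 others alone it would stand at 1.46 TPM. A long noncoding gene, Gm43904, named after its values were seen, lies 592 bases from Gp9 on the same strand and had 17, 15 and 11 reads, or a mean of 3.89 TPM. Gp6 lies between Ncr1, which had no read, and Rdh13 at 11.3 ± 0.476 TPM. Tbx1, next to Gp1bb, had 1.56 ± 0.237 TPM, and Cldn5 on the other side had no read. Nfe2 lies among active genes: Hnrnpa1, 1.52 kb away on the other strand, stood at 756 ± 63.8 TPM and Copz1, 14.3 kb away, at 211 ± 3.02 TPM.

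**Figure D3:**
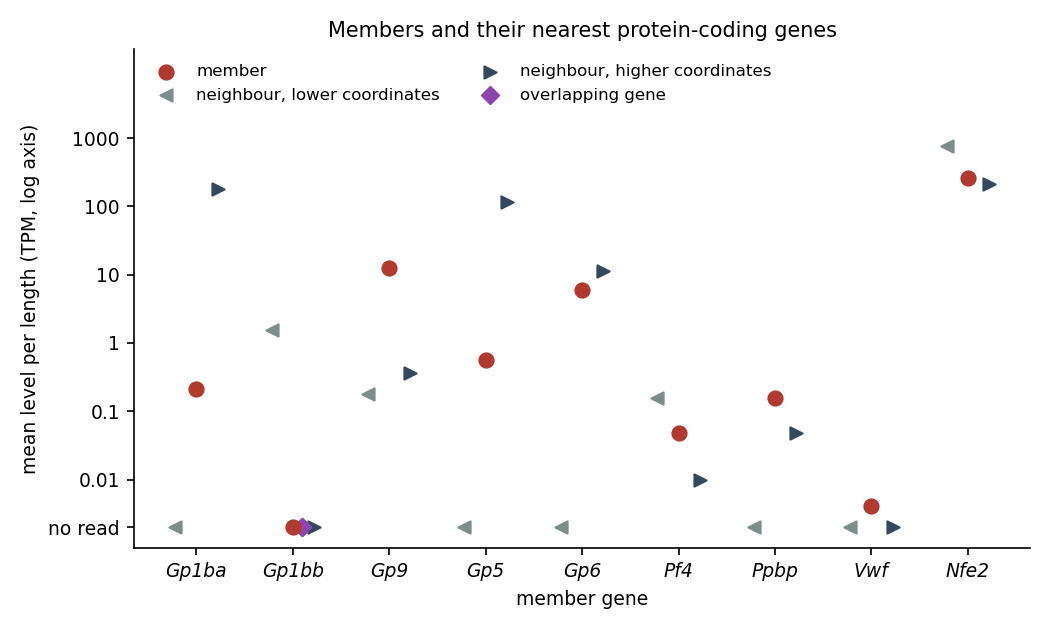
Mean level per length (TPM, log axis) of each member (red), the nearest protein-coding gene on each side (triangles) and genes that overlap it (diamonds). Gp9 is far above both neighbours, Gp1ba and Gp5 lie far below 1 neighbour each, and Nfe2 lies between its 2 neighbours.

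Nfe2 was the abundant member. The gene (ENSMUSG00000058794, chromosome 15, 103248212 to 103258403, minus strand) has 3 exons in its coding form and 10 annotated transcripts. It had 7402, 7631 and 8144 reads, or 231, 225 and 219 CPM in cultures 1, 2 and 3, a mean of 225.1 ± 5.98 (SD, n = 3). The cultures differed by 1.05 times, with culture 1 highest and culture 3 lowest, which passed the chi-square test with Benjamini-Hochberg adjustment (adjusted p = 0.0158). The chi-square call for Nfe2 ended under other scalings, at an adjusted p of 0.344 with a trimmed mean of log ratios and 0.224 with the median of ratios. The same chi-square test missed the threshold without culture 1 (adjusted p = 0.299) or without culture 3 (adjusted p = 0.312).

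All 3 genes for the small MAF partners of p45 were detected, beside 45.9% of protein-coding genes. Mafg stood at 98.7, 80.5 and 81.9 TPM in cultures 1, 2 and 3, Maff at 34.1, 31.3 and 30.5 and Mafk at 24.6, 21.6 and 23.9. Mafg was highest in culture 1, and its cultures differed beyond counting noise (chi-square test, adjusted p = 6.5e-26), as 32.7% of all tested genes did. Mafk, Nfe2l1 and Bach1 passed the same chi-square test (adjusted p = 0.0438, 0.000729 and 0.0387), and Maff and Nfe2l2 did not (adjusted p = 0.179 and 0.745). Per length, Nfe2 was 3.03 ± 0.277 times Mafg, 8.22 ± 0.269 times Maff, 11.2 ± 0.830 times Mafk and 1.85 ± 0.132 times the sum of all 3 (SD, n = 3), higher in 3 of 3 cultures in each case. Levels of RNA are given here and not of protein.

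Among the relatives of p45, which pair with the same small MAF proteins, Nfe2l1 (NRF1) stood at 87.8 ± 4.01 TPM, Nfe2l2 (NRF2, the oxidant stress factor) at 66.0 ± 1.27 and Bach1, a repressor that haem releases from DNA, at 49.9 ± 1.97 (SD, n = 3). Nfe2l3 and Bach2 had no read in any culture. On the log2(TPM + 1) scale Nfe2 exceeded Nfe2l1 by 1.57 ± 0.093, Nfe2l2 by 1.97 ± 0.019 and Bach1 by 2.37 ± 0.087, with a pseudocount of 1. Values of Nfe2 did not overlap with those of any relative or partner. The difference depends on length: without length correction it was 0.71 for Nfe2l1 and 0.68 for Mafg (beside 1.59 with it) on the log2(CPM + 1) scale.

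**Figure D4:**
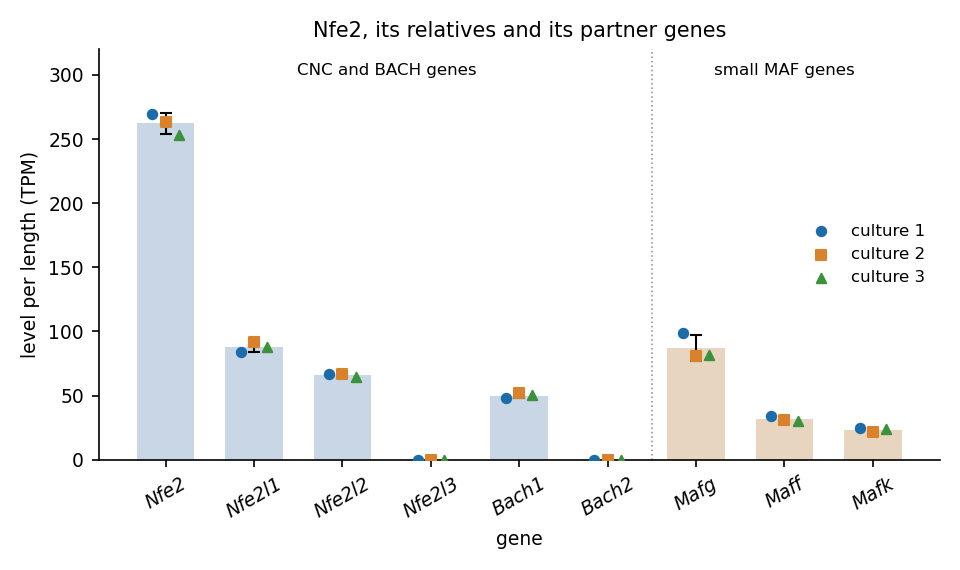
Level per length (TPM) of Nfe2, the other CNC and BACH genes and the small MAF genes (bars are means from 0, error bars SD, points the 3 cultures). Nfe2 at 262 TPM is about 3 times Nfe2l1 at 87.8 and Mafg at 87.0, and Nfe2l3 and Bach2 have no read.

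Of 4 genes that have been described as NF-E2 targets in megakaryocytes, 1 was detected, beside 45.9% of protein-coding genes. Tbxas1, the thromboxane synthase gene, stood at 31.3, 27.9 and 27.0 TPM in cultures 1, 2 and 3. Tubb1, the β1-tubulin of proplatelets, had 12, 11 and 10 reads and 0.799 ± 0.134 TPM, and Rab27b and Cavin2 had no read. The genes nearest to Nfe2 in level, by Euclidean distance on log2(TPM + 1) over the 3 cultures among protein-coding genes, were the desaturase gene Fads1 (259.5 ± 4.65 TPM), the granule fusion gene Vamp8 (258 ± 5.10) and the G protein regulator gene Rgs18 (264 ± 4.43). Over 3 cultures of 1 condition such likeness is one of level only.

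Other transcription factors of the lineage were mostly read, where 45.9% of all protein-coding genes were detected. Of 19 on the list, 15 were detected, with a median of 141 TPM over the detected ones, led by Gata2 at 397 ± 12.1, the bHLH gene Lyl1 at 359 ± 20.5 and Etv6 at 289 ± 6.67 TPM (SD, n = 3). Gata1, the erythroid and megakaryocyte regulator, stood at 95.2 ± 1.62, the ETS gene Fli1 at 89.1 ± 4.03 and Runx1 at 45.2 ± 1.79. Not detected were Meis1 and Nfib, both with no read, Mef2c with 2, 0 and 1 reads and Ets1 with 2, 2 and 0. Nfe2 was 2.75 ± 0.0401 times Gata1 and 0.661 ± 0.0406 times Gata2 per length.

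Of 22 other platelet surface receptors, 6 were detected, beside 45.9% of protein-coding genes. Itga2b, the αIIb chain of the fibrinogen receptor, had 388, 338 and 368 TPM in cultures 1, 2 and 3, and was 29.0 ± 4.83 times Gp9 and 61.7 ± 8.78 times Gp6, or 10.1 ± 1.44 times by the shorter Gp6 transcript (SD, n = 3). Its partner chain Itgb3 had 3, 5 and 3 reads. Pecam1, an adhesion receptor of platelets and endothelium, stood at 89.5 ± 2.83 TPM. The ATP-gated channel gene P2rx1 stood at 62.6, 60.7 and 61.3 TPM in cultures 1, 2 and 3, and F2r, F11r and Pear1 were also detected. Cd36, Cd9, F2rl3, Mpig6b and P2ry12 had no read. Of the 12 megakaryocyte markers, 3 were detected (Itga2b, Gp9 and Gp6); their summed level was 360 to 408 TPM over the cultures, most of it Itga2b.

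Downstream of these receptors, 16 of 18 signalling genes were detected, beside 45.9% of protein-coding genes. Rap1b, the small GTPase that turns on integrins, led at 439 ± 13.1 TPM, followed by the kinase gene Btk at 348 ± 10.9 and Fcer1g. Gnaq, with 6, 3 and 8 reads, and Prkcq, with 1, 2 and 6, were not detected. Of 4 genes listed under thromboxane synthesis 3 were detected. They were the cyclooxygenase gene Ptgs1 at 91.3 ± 1.45 TPM, Pla2g4a at 33.8 ± 1.10 TPM and Tbxas1. The undetected gene, Alox12 with 0, 1 and 2 reads, encodes a lipoxygenase and is not itself part of thromboxane synthesis. Of 12 cytoskeletal genes 10 were detected, led by Tuba4a at 612 ± 14.0, Arpc1b at 526 ± 45.0 and Wipf1 at 521 ± 21.1 TPM, and Tubb1 and Myl9, the latter with no read, were not.

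Of 18 further α-granule genes 11 were detected, beside 45.9% of protein-coding genes. They were led by Srgn, the proteoglycan core that holds charged cargo, at 2625 ± 61.5 TPM, then the fusion genes Vamp8 and Stxbp2 (234 ± 10.8). The 7 that were not are all cargo: F13a1, Pdgfa and Serpine2 had no read, and Mmrn1, Pdgfb, Sparc and Thbs1 had at most 5 in a culture. Cargo genes that were detected beside Srgn, named after their values were seen, included Tgfb1, Clu and F5. Of 16 dense granule genes 13 were detected, led by Slc18a2, the vesicular monoamine transporter gene, at 344 ± 33.7, Unc13d at 291 ± 9.62 and Ap3b1 at 128 ± 3.17 TPM, and Rab27b, Slc35d3 and Lyst were not.

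**Figure D5:**
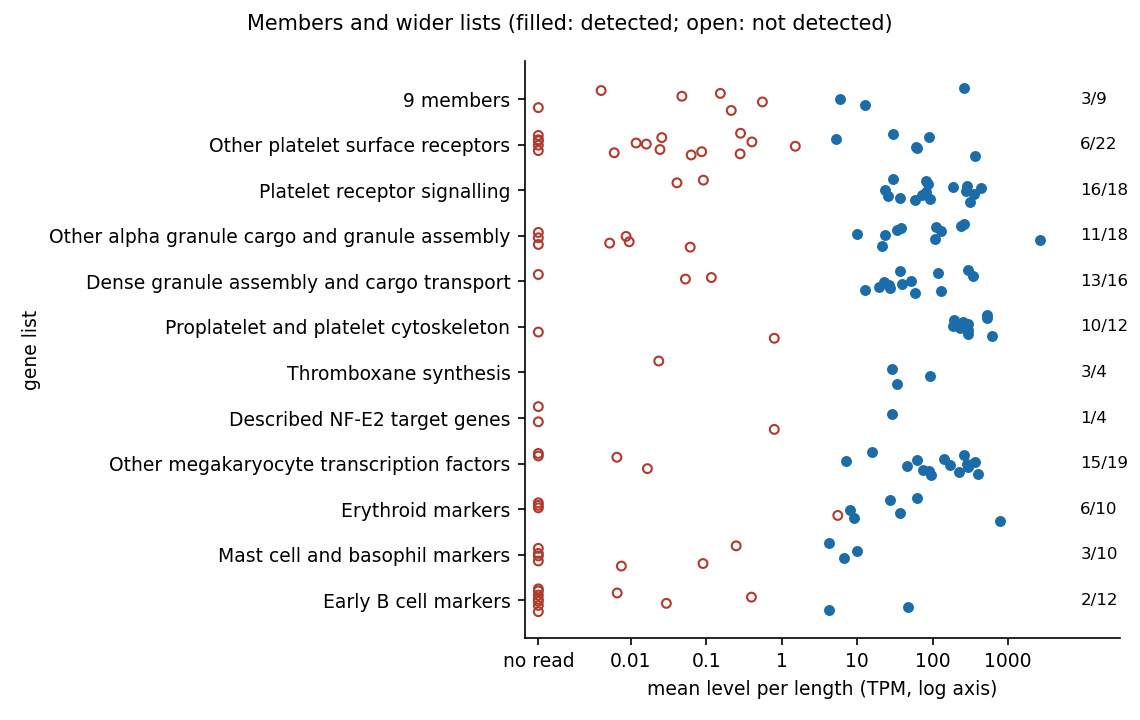
Mean level per length (TPM, log axis) of each gene in the 9-member set and the wider lists, with the number detected at the right (filled blue points detected, open red points not). The members split into 3 detected and 6 undetected genes, and 6 of 22 surface receptors are detected. The counts for the signalling, cytoskeleton and transcription factor lists are 16 of 18, 10 of 12 and 15 of 19. The share detected is 45.9% over all protein-coding genes and 19.9% over all genes.

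Markers of the neighbouring lineages were read in part, where 45.9% of protein-coding genes were detected. Of 10 erythroid markers 6 were detected, led by Hba-a1 at 781 ± 56.3 TPM, whose level is uncertain because a near-identical copy exists, Tfr2 at 62.0 ± 3.02 and Klf1 at 37.0 ± 4.88, while Slc4a1 and Alas2 had no read. The summed level of that list was 864 to 969 TPM over the cultures, of which Hba-a1 made up 83.0% to 85.0%. Of 10 mast cell and basophil markers 3 were detected, Cma1 (9.97 ± 0.554 TPM), Ms4a2 (6.76 ± 1.23) and Gzmb (4.26 ± 0.581), with a summed level of 20.3 to 22.8 TPM, and Fcer1a, Mcpt8, Prss34 and Tpsb2 had no read. The summed level of the 12 early B cell markers was 48.9 to 53.9 TPM.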

How the data were processed

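Polyadenylated RNA of 3 separate Ba/F3 cultures was made into TruSeq Stranded libraries, per the labels, and sequenced as 50-base single-end reads, per the series' design text. That text also records alignment by the authors to GRCm38 with HISAT2 and counting with GenSum; no source used here gives versions, the strand setting or the handling of bases shared by genes. The deposited values are, from the values themselves, log2(reads per 10000000 + 1). Undoing the log gave whole reads for 100% of entries (tolerance 0.01). A read equals 0.0312, 0.0295 and 0.0269 CPM in cultures 1, 2 and 3.

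Culture 3 stands in another row order, following the symbols and coordinates, whereas cultures 1 and 2 follow the gene identifiers. It was joined through GENCODE M21 (GRCm38) by coordinates for 54916 rows and by symbol for 345; 225 rows had no match. The deposited average mixes genes and was not used.

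CPM uses the column total, and TPM the merged exonic length. Differences between cultures were tested with a chi-square test of Poisson heterogeneity on the recovered reads for 13142 genes with a mean of at least 10 reads, with Benjamini-Hochberg adjustment and a threshold of 0.05. It compares libraries, 1 per culture. The code was tried on simulated Poisson reads, which hold only counting noise and the changes put in. Such reads cannot show how the test behaves on real libraries. Alternatives were other detection thresholds, scalings, lengths, pseudocounts and read minimums, the deposited rows, and leaving out each culture. Members and lists were chosen with earlier results of these data known. Beside all 9 members, the genes named are the 3 with the highest TPM and up to 3 with the fewest reads in each list, the partners and relatives of Nfe2, Fcer1g, the nearest protein-coding neighbours and the 3 genes nearest to Nfe2; others are marked or belong to the marker lists. Software was Python 3.11.15 with numpy 2.4.6, scipy 1.17.1 and pandas 2.3.3. Some genes of the lists are not reported here by name.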

Additional observations from a re-analysis of the deposited data

How the results depend on the processing

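The count of 3 detected members held with a threshold of 0.5 CPM, detection in at least 1 culture, both other scalings and TPM. It also held with any culture left out (3 to 3), and it was 2 at 5 CPM. At 5 CPM the mast cell and basophil markers fell from 3 to 0 and the early B cell markers from 2 to 1; the other 124 list counts stayed within 1.5 times. With culture 3 read on the deposited row the count was also 3, but culture 3 then held another gene. The mean levels stayed close, at 231.1 CPM beside 225.1 for Nfe2, 9.87 beside 10.14 for Gp6 and 3.20 beside 3.22 for Gp9. That setting cannot test the count, since a gene of like level on the row keeps each member on its side of the threshold. No member level other than that of Nfe2 moved by more than its SD. The chi-square call for Nfe2 ended with trimmed mean of log ratios (adjusted p = 0.344) and median of ratios (0.224); leaving out a culture gave 0.00481 to 0.312 for Nfe2, 0.00109 to 0.273 for Gp6, 0.314 to 0.947 for Gp9 and 0.292 to 0.667 for Gp5. With no read minimum 3899 of 22972 genes were called, 1458 of 13143 without culture 1 and 2655 of 13134 without culture 3, beside 4302 of 13142.

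Log2 differences of Nfe2 from Maff, Mafg, Mafk, Nfe2l1, Nfe2l2 and Bach1 were 2.999, 1.59, 3.43, 1.57, 1.97 and 2.37. Without length correction they were 3.19, 0.684, 3.06, 0.711, 1.63 and 1.33, and by longest transcript 3.26, 2.06, 3.77, 2.01, 2.03 and 2.96. A pseudocount of 5 gave 2.85 for Maff, 3.23 for Mafk, 1.91 for Nfe2l2 and 2.28 for Bach1. All stayed above 0. The log2 difference of Gp9 from Gp6 was 0.976 and reversed to -1.45 with the shorter Gp6 transcript, an alternative chosen after seeing the data. Also chosen after seeing the data were the same length for the ratios of Fcer1g and Itga2b to Gp6, the unshared bases of Rab43, and Gp1bb at its limit, which all moved the value. No paired analysis was possible because the samples form 1 group. Depth leaves Pf4, Ppbp and Vwf with at most 2 reads in a culture, and Gp1bb with an upper limit that its 149 unshared bases raise.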
